A study of Caenorhabditis elegans with 8 samples.

Results

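The genes described are 10 core regulators of the *Caenorhabditis elegans* cell division cycle: cyd-1, cdk-4, cye-1, cki-1, lin-35, cdc-25.1, cdk-1, cyb-1, cyb-3 and chk-1. They were chosen by name as cyclins, cyclin-dependent kinases, inhibitors and checkpoint genes, and each was read from its brightest probe set. All 10 had a probe set, of 25528 genes measured. Messenger RNA came from whole worms on day 1 of adulthood, synchronised by bleaching, fed *Escherichia coli* OP50 and otherwise untreated. Wild type (N2) was sampled 4 times and the mutant mir-71(n4115), in which the microRNA gene mir-71 is mutated, also 4 times, each sample on its own 1-colour Affymetrix array. In the WBcel235 annotation cye-1, lin-35 and cdc-25.1 lie on chromosome I, which also carries mir-71, cyd-1 and cki-1 on II, cdk-1 on III, cyb-1 on IV, cyb-3 and chk-1 on V and cdk-4 on X. The values are deposited log2 signals, so a difference of 1 is a 2-fold change. The comparison asked which of these mRNAs differ when mir-71 is mutated. The chk-1 and cdc-25.1 genes have been named elsewhere as candidate mir-71 targets.

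Cell division is driven by kinases that act only when bound to a cyclin. The cyclin D kinase carries a cell through G1 by countering the retinoblastoma protein LIN-35, cyclin E opens S phase, and B-type cyclins with CDK-1 drive entry into mitosis. CDC-25 phosphatases release the kinases from inhibitory phosphate, while CKI-1 and CHK-1 hold them back. In an adult hermaphrodite the somatic cells have stopped dividing, and division continues in the germ line and in the embryos held in the uterus. A whole-worm signal therefore mixes dividing and arrested cells, and fewer cells of a type cannot be told apart from less RNA per cell.

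No named probe set measured mir-71, which leaves the mutation unchecked here. Array medians over the tested probe sets lay between 5.20 and 5.30, and the values of all 10 genes lay above them. Wild-type replicates 1 to 3 correlated with each other at 0.990 to 0.993 across probe sets, and wild-type replicate 4 correlated with them at 0.961 to 0.976 and with the mutants at 0.986 to 0.993. It was kept in the wild type, where its label puts it. For each of the 10 genes the difference is given with and without that array. Nothing in the labels says that replicates are separate cultures, and the p-values then cover only the spread between these samples, which may be technical.

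None of the 10 genes passed the test with all 8 arrays weighted alike, which does not show that they were unchanged. With limma and an adjusted p under 0.05 over 26192 probe sets, 0 of 10 passed, where 0.619% of all genes rose and 1.22% fell (1.84% together). Of the 10, 1 had an unadjusted p under 0.05, as had 26.1% of all genes (13.3% higher and 12.9% lower). The median log2 difference was 0.10 for the 10 genes and 0.02 for all genes, and 0.19 and 0.01 after each array's trend with gene length was removed. In 0 of 10 did the groups separate, where 5.99% of all genes had their 4 mutant arrays above the 4 wild-type arrays and 5.01% had them below. With arrays weighted by how closely they fit their group (limma's array weights), 5 of 10 rose and 0 fell, where 21.3% of all genes rose and 19.8% fell. The 5 were cyd-1 (adjusted p = 8.46e-04), cdc-25.1 (adjusted p = 0.00941), cdk-1 (adjusted p = 0.0494), cyb-3 (adjusted p = 0.0120) and chk-1 (adjusted p = 0.00797). The weights were set by these same values, so these calls are descriptions only. Wild-type replicate 4 lay inside the mutants' range for 7 genes and above it for cdk-1, cyb-3 and chk-1.

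**Figure D1:**
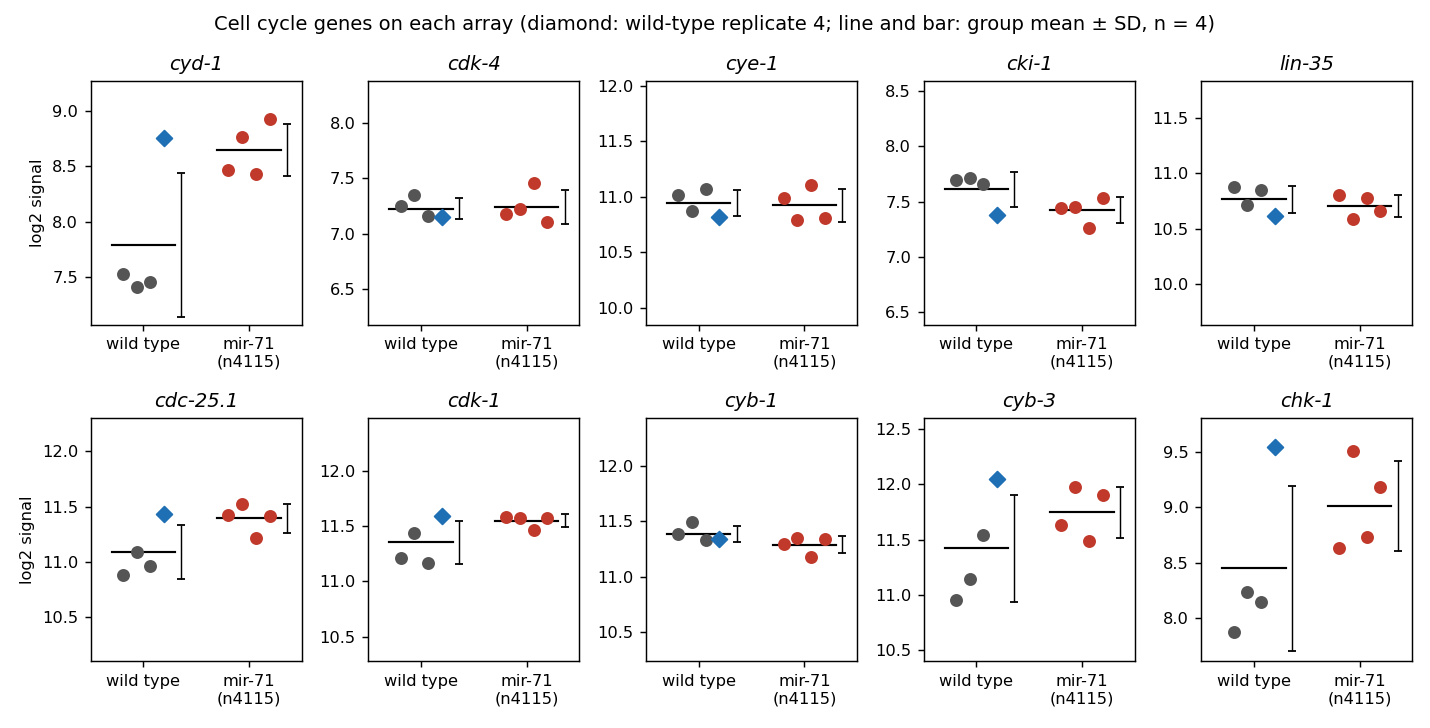
Log2 signal of each gene on each array, with every panel spanning the same height in log2 units. Grey points are wild-type replicates 1 to 3, the blue diamond is wild-type replicate 4, red points are the 4 mutants, lines are group means and bars are ± 1 SD (n = 4); for cyd-1 the diamond stands at 8.76, inside the mutants' 8.43 to 8.92 and above the other wild types' 7.41 to 7.53.

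Of the G1 genes, cyd-1, the only D-type cyclin of the worm, had the largest difference of the 10. It read 7.53, 7.41, 7.46 and 8.76 in wild-type replicates 1 to 4 and 8.47, 8.76, 8.43 and 8.92 in mutant replicates 1 to 4. The mutants lay above wild-type replicates 1 to 3 and on both sides of replicate 4. The log2 difference was 0.86 ± 0.29 (SE, n = 4 per group), a 1.81-fold higher level with a 95% interval from 1.14 to 2.87, and it did not pass (adjusted p = 0.127). Without wild-type replicate 4 it was 1.18 ± 0.14, or 2.27-fold, and cyd-1 rose (adjusted p = 4.55e-04). After each array's trend with gene length had been removed, the difference was 0.72 ± 0.25 (adjusted p = 0.136).

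For cdk-4, which encodes the kinase that cyclin D activates, the wild types read 7.25, 7.35, 7.16 and 7.15 and the mutants 7.18, 7.23, 7.45 and 7.10. The groups overlapped over nearly their whole ranges. A log2 difference of 0.01 ± 0.12 was measured, with an interval of 0.84-fold to 1.21-fold (adjusted p = 0.956), and it turned below 0 without wild-type replicate 4 (-0.01 ± 0.12), with array weights (-0.07 ± 0.10) and with the length trend removed (-0.0023). The probe set of cdk-4 is annotated under a pair of gene identifiers that both carry this symbol.

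At the step into S phase, cye-1, which encodes cyclin E, read 11.02, 10.87, 11.07 and 10.81 in the wild type and 10.99, 10.79, 11.104 and 10.81 in the mutants. The groups overlapped throughout, with replicates 1 and 3 above replicates 2 and 4 in both. Their log2 difference was -0.02 ± 0.12 (adjusted p = 0.919) and its interval ran from 0.81-fold to 1.19-fold. Without wild-type replicate 4 the difference was -0.07 ± 0.12 (adjusted p = 0.706). It was -0.08 ± 0.13 with the length trend removed and -0.10 ± 0.11 with array weights. The retinoblastoma gene lin-35, which represses cell cycle transcription, had the same layout. Its wild types read 10.88, 10.71, 10.85 and 10.61 and its mutants 10.80, 10.59, 10.78 and 10.66, a log2 difference of -0.06 ± 0.11 (adjusted p = 0.771). Without wild-type replicate 4 the difference was -0.11 ± 0.11 (adjusted p = 0.482). With the length trend removed the difference of lin-35, which has the longest gene of the 10 at 7929 bp, was -0.31 ± 0.17 (adjusted p = 0.275). With wild-type replicate 4 also left out it was -0.47 ± 0.12 and lin-35 fell (adjusted p = 0.0195).

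The inhibitor gene cki-1, of the CIP/KIP type that keeps cells in G1, was the member with the lowest difference. It read 7.69, 7.72, 7.66 and 7.38 in the wild type and 7.44, 7.46, 7.26 and 7.53 in the mutants. All 4 mutants lay below wild-type replicates 1 to 3, and replicate 4 lay among the mutants. It differed by -0.19 ± 0.12 on the log2 scale (adjusted p = 0.336), and by -0.27 ± 0.11 when wild-type replicate 4 was left out (adjusted p = 0.0824). It turned to 0.03 ± 0.12 with the length trend removed (adjusted p = 0.889), so no direction is given for cki-1, which has the shortest gene of the 10 at 866 bp.

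Of the genes of mitotic entry, the phosphatase gene cdc-25.1, which is required for germ cell proliferation, read 10.88, 11.09, 10.96 and 11.44 in the wild type. The mutants read 11.43, 11.53, 11.21 and 11.42. Wild-type replicates 1 to 3 lay below all 4 mutants and replicate 4 lay among them. Mutants differed from wild types by 0.31 ± 0.15 on the log2 scale (adjusted p = 0.214), with an interval from 0.98-fold to 1.56-fold. Without wild-type replicate 4 it was 0.42 ± 0.12, or 1.34-fold, and cdc-25.1 rose (adjusted p = 0.0204).

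The mitotic kinase gene cdk-1 read 11.21, 11.44, 11.17 and 11.59 in the wild type and 11.58, 11.57, 11.47 and 11.57 in the mutants. The mutants lay within 0.12 of each other, above wild-type replicates 1 to 3 and below replicate 4. This gave a log2 difference of 0.20 ± 0.13 (adjusted p = 0.325), or of 0.28 ± 0.11 when wild-type replicate 4 was left out (adjusted p = 0.0790). With the length trend removed it was 0.35 ± 0.16 (adjusted p = 0.203), and with both changes 0.48 ± 0.12, where cdk-1 rose (adjusted p = 0.0146).

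The B-type cyclins CYB-1 and CYB-3 are both partners of CDK-1. For cyb-1 the wild types read 11.38, 11.49, 11.34 and 11.34 and the mutants 11.29, 11.35, 11.18 and 11.34. The log2 difference was -0.10 ± 0.10 (adjusted p = 0.563), with an interval of 0.80-fold to 1.099-fold. Without wild-type replicate 4 the difference was -0.11 ± 0.10 (adjusted p = 0.436). It changed sign to 0.02 ± 0.11 with the length trend removed. For cyb-3, whose product is needed for chromosome segregation in the embryo, the wild types read 10.95, 11.15, 11.55 and 12.05 and the mutants 11.63, 11.98, 11.48 and 11.90. Wild-type replicate 4 was the highest array of the 8, and replicate 3 lay above 1 mutant. The log2 difference was 0.32 ± 0.24 (adjusted p = 0.388). Without wild-type replicate 4 it was 0.53 ± 0.18, or 1.45-fold, and cyb-3 rose (adjusted p = 0.0423). Whether cyb-1 and cyb-3 differ in their response was not tested.

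The checkpoint kinase gene chk-1, which delays division when DNA is damaged or replication is slow, was the most spread of the 10. It read 7.88, 8.24, 8.14 and 9.54 in the wild type and 8.64, 9.51, 8.73 and 9.19 in the mutants. All mutants lay above wild-type replicates 1 to 3 and below replicate 4. The log2 difference was 0.57 ± 0.36 (adjusted p = 0.320), with an interval from 0.85-fold to 2.58-fold. Without wild-type replicate 4 it was 0.93 ± 0.21, or 1.91-fold, and chk-1 rose (adjusted p = 0.00925). Its mean in the mutants was 0.53 lower on the log2 scale than its single value in wild-type replicate 4.

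**Figure D2:**
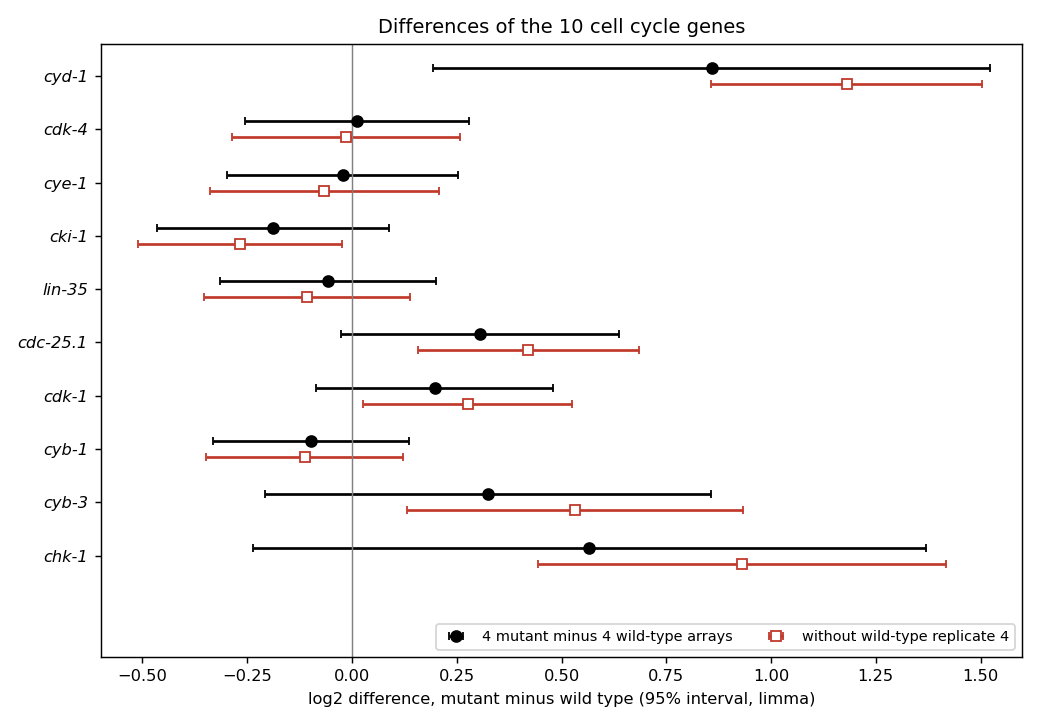
Log2 difference, mutant minus wild type, of each of the 10 genes with its 95% interval from limma; black circles use all 8 arrays and red squares leave out wild-type replicate 4. With all arrays only the interval of cyd-1 (0.19 to 1.52) lies clear of 0, and without that array those of cyd-1, cdc-25.1, cdk-1, cyb-3 and chk-1 lie above 0 and that of cki-1 below it.

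Leaving out wild-type replicate 4 gave 4 of 10 genes that rose (cyd-1, cdc-25.1, cyb-3 and chk-1) and 0 that fell. Over all genes 19.2% rose and 17.8% fell in that comparison, so a call there is common in the whole table. That array was singled out by its likeness to the mutants in these same values. The p-values without it are therefore too small, and the calls are descriptions only. With the length trend removed as well, cdk-1 joined those that rose and lin-35 fell, 5 and 1 of 10, where the shares over all genes were 16.5% and 17.3%. With all 8 arrays kept and lengths corrected for, 0 of 10 passed, where 0.608% of all genes rose and 1.13% fell. Leaving out any of the other 7 arrays left 0 of 10 called. The cyd-1, cdc-25.1, cyb-3 and chk-1 genes are 4895, 2537, 1656 and 2317 bp long, where the median over all genes is 1540 bp. With the length trend removed their differences over all 8 arrays were 0.72, 0.34, 0.45 and 0.62. Without wild-type replicate 4 as well they were 0.98, 0.47, 0.70 and 1.01. Removing the trend thus lowered the difference of cyd-1 and raised those of cdc-25.1, cyb-3 and chk-1.

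The genes most like each member over the 8 arrays were sought in the whole table. These correlations are descriptions over 8 arrays that fall into 1 set of 3 wild types and 1 set of the other 5, and carry no test. The cyd-1 profile was most like those of mbk-2, a kinase of the oocyte-to-embryo transition (r = 0.997), and rcor-1 (r = 0.995). The cdc-25.1 profile was most like ptr-25 and C01C4.3, cdk-1 like mmad-1 and pqn-53, and chk-1 like T18D3.1 and the splicing factor gene rsp-1, with r from 0.993 to 0.997. Such likeness was common for these 4, since 535 to 770 genes had r over 0.95 with each. The others had 3 to 39 such genes. Most like cyb-3 were F09E10.5 and F33E2.10, most like cyb-1 rsp-5 and gst-7, and most like cki-1 T26C11.8 and R12G8.1. Most like cye-1 were tbck-1 and Y73F4A.1, most like lin-35 wshc-5 and sec-5, and most like cdk-4 dhs-15 and ptr-9, where r ran from 0.957 to 0.989 over these 6 members.

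The rest of the cell cycle machinery was read from 8 lists of 149 genes, of which 146 were measured. None passed with all arrays (limma, lowest adjusted p = 0.0978), and 33 had an unadjusted p under 0.05, 22.6% against 26.1% of all genes. Of these 33, 23 were higher in the mutants and 10 lower. The median log2 difference was 0.07, and 93 of 146 were higher in the mutants (63.7%, against 51.9% of all genes). In 11 of 146 (7.53%, against 5.99% of all genes) the 4 mutants lay above the 4 wild types, and in 1 below. Without wild-type replicate 4, 42 of 146 rose (28.8%, against 19.2% of all genes) and 19 fell (13.01%, against 17.8%). These shares were not corrected for gene length, and the lists' median lengths were 2278 to 3895 bp, against 1540 bp for all genes. With the length trend removed as well, falls went from 4 to 6 for DNA damage genes and from 2 to 4 for the anaphase-promoting complex. They went from 2 to 3 for other cyclins and cyclin-dependent kinases and from 0 to 1 for G1 and S phase regulators. Falls became fewer in no list. Rises went from 6 to 7 for G1 and S phase regulators and from 5 to 3 for the anaphase-promoting complex. They went from 9 to 8 for other cyclins and cyclin-dependent kinases. For DREAM partners they went from 5 to 4 and for DNA damage genes from 3 to 2. Neither count changed for mitotic entry, DNA replication or spindle checkpoint and kinetochore genes. Over all genes 16.5% rose and 17.3% fell in that comparison. Lists were not tested as sets.

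Among 23 other cyclins and cyclin-dependent kinases 0 rose and 0 fell, 7 were higher and 1 lower at an unadjusted p under 0.05, and the median was 0.20. The cyclin H gene cyh-1 had the lowest p (0.67 ± 0.19, adjusted p = 0.0978). The S phase kinase gene cdk-2, partner of cyclin E, had the highest difference, 0.75 ± 0.27 (adjusted p = 0.133). It read 8.48, 9.06, 8.62 and 9.82 in the wild type and 9.59 to 9.86 in the mutants, so that wild-type replicate 4 again stood with the mutants. The cyclin K gene ccnk-1 had the lowest, -0.51 ± 0.21 (adjusted p = 0.166), or -0.33 with the length trend removed. Of the 11 genes whose mutants all lay above all wild types, 6 were among these 23 genes. Another 2 were among 15 spindle checkpoint and kinetochore genes. There was 1 each among 13 G1 and S phase regulators, 15 DREAM partners and 31 DNA replication genes, and 0 in the other 3 lists. Over all genes 5.99% had this layout, and the split between lists was not tested. Named after their values were seen, the 6 were cdk-5, cdk-11.2, cit-1.1, cyl-1, pct-1 and cyy-1, with log2 differences from 0.15 to 0.38 and adjusted p from 0.117 to 0.399. With the length trend removed pct-1, a gene of 12401 bp, turned to -0.05 ± 0.13, and the other 5 lay between 0.13 and 0.35.

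**Figure D3:**
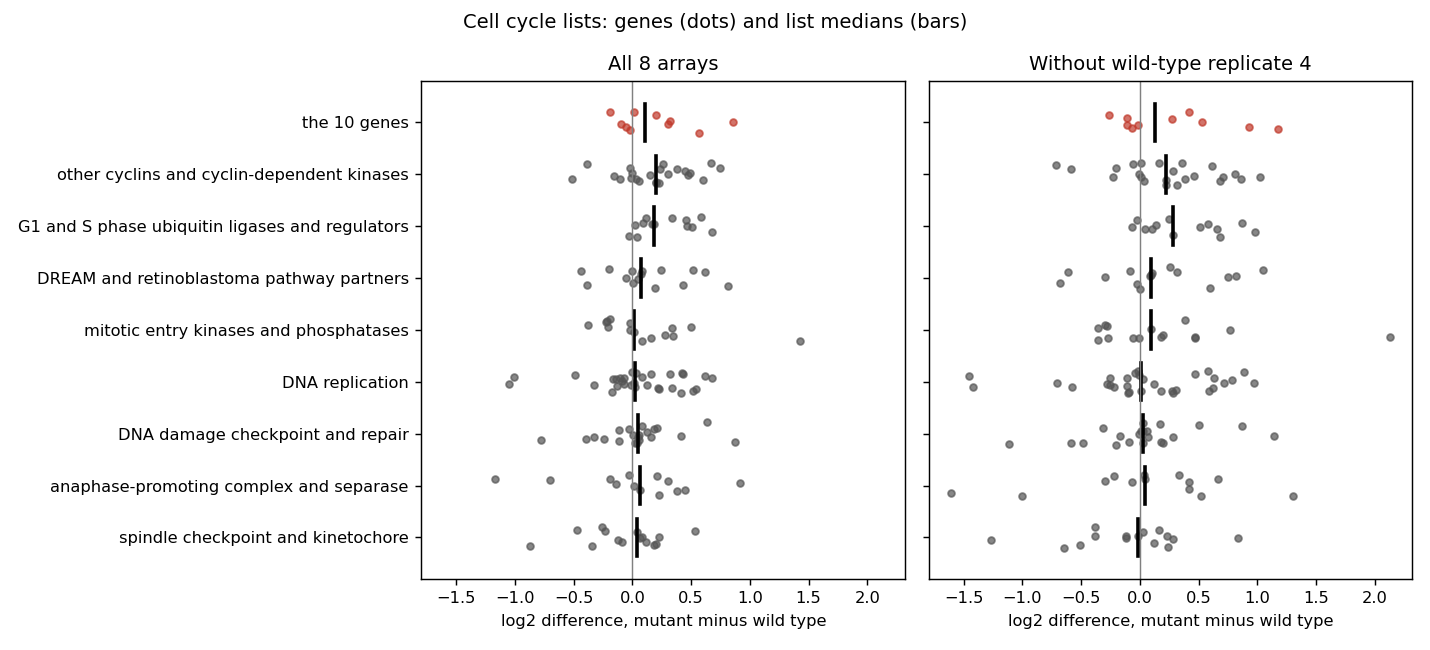
Log2 differences, mutant minus wild type, of the 10 genes (red) and of the measured genes of the 8 other cell cycle lists (grey), with list medians as black bars, from all 8 arrays (left) and without wild-type replicate 4 (right). With all arrays no dot passed the test; the medians lie between 0.01 and 0.20, and the rightmost dot is cdc-25.2.

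Of 13 ubiquitin ligase subunits and other regulators of G1 and S phase, 0 passed and 3 were higher and 0 lower at an unadjusted p under 0.05, with a median of 0.18. The fzr-1 gene, an activator of the anaphase-promoting complex in G1, had all mutants (11.70 to 11.76) above all wild types (11.21, 11.22, 11.03 and 11.65) and a difference of 0.46 ± 0.14 (adjusted p = 0.110). The cullin gene cul-2 had the highest difference (0.68 ± 0.28, adjusted p = 0.174) and ddb-1 the lowest (-0.03 ± 0.12, adjusted p = 0.881; -0.24 with the length trend removed). Of 15 partners of lin-35 in the DREAM repressor complex and related chromatin genes 0 passed, 3 were higher at an unadjusted p under 0.05 and 0 lower, and the median was 0.07. The E2F family gene efl-2 differed by 0.62 ± 0.20 (adjusted p = 0.113) and efl-3 by 0.81 ± 0.28 (adjusted p = 0.128), while the DREAM subunit gene lin-37 differed by -0.44 ± 0.22 (adjusted p = 0.234).

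Of 15 kinases and phosphatases of mitotic entry 0 passed, 2 were higher and 1 (cdc-25.4) lower at an unadjusted p under 0.05, and their median was 0.01. The cdc-25.2 gene, a second phosphatase of the CDC-25 family, read 7.21, 7.16, 6.95 and 9.93 in the wild type and 8.65, 10.22, 8.52 and 9.58 in the mutants. Wild-type replicate 4 thus stood well above the other wild types and between the mutants. Its difference of 1.43 ± 0.66 did not pass (adjusted p = 0.204), and without that array it was 2.13 and cdc-25.2 rose (adjusted p = 0.00253). The cdc-25.4 gene read 2.98 to 3.75 on all arrays, below the array medians, so that it is not shown to be above background. Its difference was -0.38 ± 0.15 (adjusted p = 0.159) and -0.20 with the length trend removed.

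Of 31 DNA replication genes 0 passed, 4 were higher and 3 lower at an unadjusted p under 0.05, and the median was 0.02. The GINS subunit gene psf-3 differed by -1.05 ± 0.34 (adjusted p = 0.117) and the helicase gene mcm-2 by 0.68 ± 0.27 (adjusted p = 0.154). Without wild-type replicate 4 the difference of mcm-2 was 0.97 ± 0.13 and mcm-2 rose (adjusted p = 7.72e-04).

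Of 21 DNA damage checkpoint and repair genes 0 passed, 3 were higher and 1 lower at an unadjusted p under 0.05, and the median was 0.05. The chk-2 gene, a meiotic kinase related to checkpoint kinases, differed by 0.87 ± 0.31 (adjusted p = 0.130) and hus-1, a subunit of the checkpoint clamp, by -0.78 ± 0.33 (adjusted p = 0.176). Of 13 measured subunits and partners of the anaphase-promoting complex 0 passed, 1 was higher and 2 lower at an unadjusted p under 0.05, and the median was 0.07. Its subunit gene apc-10 differed by -1.17 ± 0.37 (adjusted p = 0.114) and gfi-3 by 0.91 ± 0.40 (adjusted p = 0.184). Of 15 spindle checkpoint and kinetochore genes 0 passed, 2 were lower at an unadjusted p under 0.05, and the median was 0.04. There him-10 differed by -0.47 ± 0.18 (adjusted p = 0.143), kbp-3 by -0.87 ± 0.35 (adjusted p = 0.162) and zwl-1 by 0.54 ± 0.29 (adjusted p = 0.260), or 0.28 with the length trend removed. The genes named in these lists with the most negative differences, apc-10 (992 bp), psf-3 (890 bp), kbp-3 (843 bp) and hus-1 (1199 bp), are shorter than the median gene. With the length trend removed their differences were -0.96, -0.84, -0.65 and -0.60. Without wild-type replicate 4, lengths uncorrected, they were -1.61, -1.45, -1.27 and -1.11. Each of these genes fell in that comparison (adjusted p from 7.08e-05 to 0.00301).

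Markers of tissues that may make up unequal shares of a worm were read beside these genes. Of 21 oocyte and early embryo markers 0 passed. Their summed signal (log2 of the sum) was 15.81 to 15.99 in wild-type replicates 1 to 3, 16.17 in replicate 4 and 15.99 to 16.16 in the mutants. Of 17 markers of germ line stem and meiotic cells 0 passed, at 14.21 to 14.29, 14.39 and 14.29 to 14.41. Among 16 measured zygotic embryo markers cnd-1 rose (0.65 ± 0.13, adjusted p = 0.0485) and 0 fell, but with the length trend removed cnd-1 no longer passed (adjusted p = 0.0593). In wild-type replicates 1 to 3 cnd-1 read 4.90, 5.14 and 5.11, below those arrays' medians of 5.26, 5.25 and 5.20. It is thus not shown to be above background on them. Of the 16, 11 were higher in the mutants and 5 lower, 6 and 2 of them at an unadjusted p under 0.05. The sums of that list were 13.16 to 13.21, 13.27 and 13.33 to 13.46. For each of these 3 lists the sum on wild-type replicate 4 lay above those on replicates 1 to 3. Of 14 moulting markers 2 rose and 0 fell, and their summed signal was 11.14 to 11.35, 12.07 and 12.03 to 12.24. The lowest p there was that of noah-2, an apical matrix gene (1.14 ± 0.23, adjusted p = 0.0426). Of 12 epidermis markers 0 passed, at 12.83 to 13.07, 13.44 and 13.37 to 13.54, with wrt-10 lowest in p (1.11 ± 0.28, adjusted p = 0.0782).

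For sperm markers the summed signal on wild-type replicate 4 stood with those on the other wild types. Of 12 measured 5 fell and 0 rose (3 and 0 with the length trend removed), and their summed signal was 10.18 to 10.44 in wild-type replicates 1 to 3, 10.20 in replicate 4 and 8.95 to 9.45 in the mutants. The major sperm protein gene msp-38 fell by 1.34 on the log2 scale (adjusted p = 0.0114). In this list 9 of 12 were lower in the mutants and 3 higher. Single members varied in wild-type replicate 4: relative to replicates 1 to 3, msp-33 stood at -0.96 and spe-9 at 1.15. The spe-9, spe-38, ssq-1 and gsp-4 genes read 2.23 to 4.83, below the array medians, so that they are not shown to be above background. Some mutant readings of other sperm markers also lay below those medians. They were msp-3 (3.89 to 4.77 in the mutants) and gsp-3 (5.11 and 5.15 in mutant replicates 1 and 3). Of the called genes they were msp-33 (4.95 in mutant replicate 3) and ssq-4 (4.66 in mutant replicate 2). The lists of intestine, body wall muscle and neuron markers had no called member. For 11 measured intestine markers the median was -0.22, with the lowest p for ges-1 (-1.05 ± 0.23, adjusted p = 0.0534). For 11 body wall muscle markers the median was 0.31, and 8 were higher in the mutants and 3 lower. The lowest p there was that of pat-10 (-0.34 ± 0.14, adjusted p = 0.160), which lay against its list. For 12 neuron markers the median was 0.27, and 0.02 with the length trend removed. Lowest in p was rab-3 (0.65 ± 0.19, adjusted p = 0.103). The lowest p among oocyte markers was that of mex-3 (0.54 ± 0.25, adjusted p = 0.199), on a list with 18 of 21 members higher in the mutants and a median of 0.17. Among germ line markers it was that of syp-2 (-1.12 ± 0.35, adjusted p = 0.111), which lay against its list, where 13 of 17 were higher and the median was 0.17. With the length trend removed mex-3 stood at 0.32 and pat-10 at -0.18. The part of tissue shares in the values of the 10 genes was not tested.

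**Figure D4:**
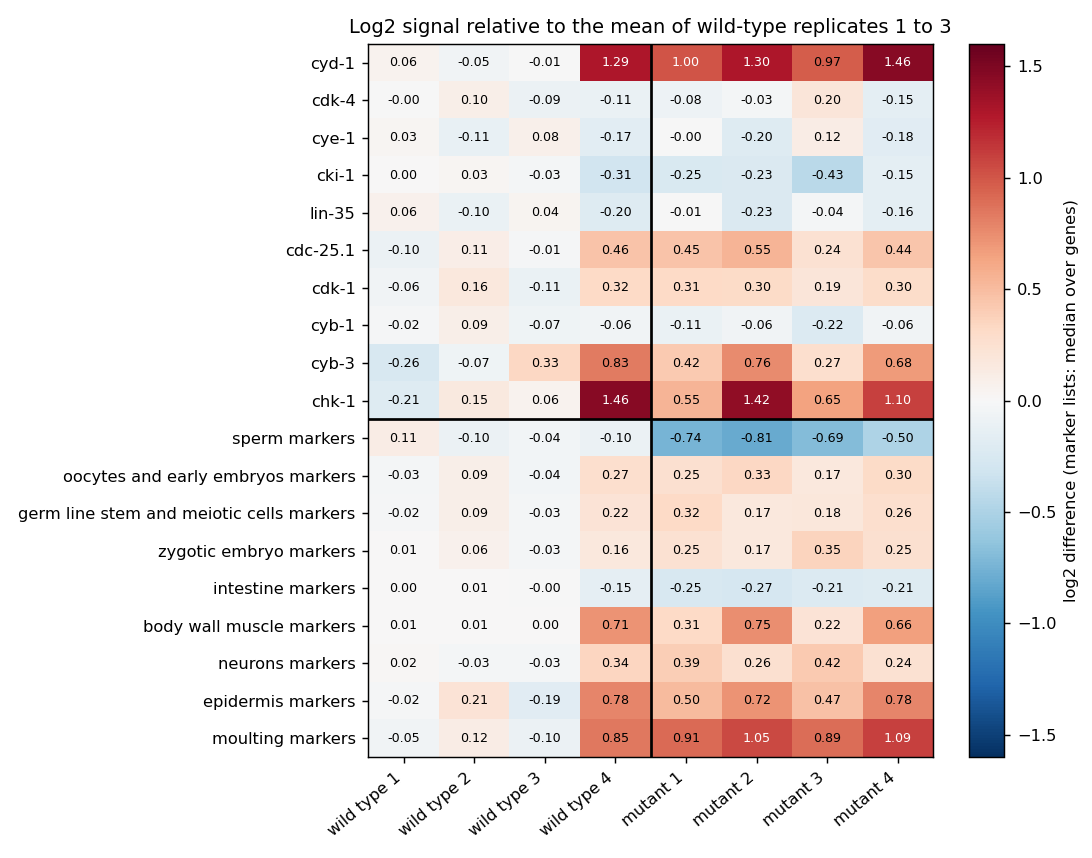
Log2 signal on each array relative to the mean of wild-type replicates 1 to 3, for the 10 genes (top) and, as medians over genes, for the 9 marker lists (bottom); red is higher and blue lower. In the column of wild-type replicate 4, cyd-1 stands at 1.29 (mutants 0.97 to 1.46) and chk-1 at 1.46 (mutants 0.55 to 1.42). The moulting markers stand there at 0.85 (mutants 0.89 to 1.09) and the sperm markers at -0.10 (mutants -0.81 to -0.50).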

How the data were processed

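Gene expression was measured on 8 Affymetrix arrays, 4 per genotype. The authors deposited 1 table of log2 signals of 29317 probe sets. Per the submitters' processing notes it was made with Partek 6.6 and RMA, which corrects background, normalises between arrays and summarises probes. Their settings and the genome build were not given in the sources used here. The log2 scale was read from the range of the deposited values, 1.15 to 13.45. No further normalisation was applied, and RMA hides any change common to most genes. Detection above background was not judged, since scanner files were not analysed here.

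Gene names came from the platform's annotation in GEO, which may be outdated, and symbols were updated by gene identifier to RefSeq (assembly WBcel235). Of 26192 probe sets listed, 25600 had 1 gene and 592 several, counting repeats of 1 symbol as 1 gene; 25549 matched RefSeq. The other 3125 rows were not tested. The brightest probe set over all arrays stood for a gene, giving 25528 genes, and each of the 10 members had 1 probe set.

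Groups came from the sample labels. Mutants were compared with wild types in limma 3.58.1 under R 4.3.3, with moderated 2-sided tests (lmFit, eBayes), no covariate, and p adjusted by Benjamini-Hochberg over 26192 probe sets at a threshold of 0.05. A difference is the mutant mean minus the wild-type mean, with its standard error. The length trend was a lowess curve (span 0.3) of each array's deviations from the probe set's mean against log2 gene length. The fit was tested on simulated data. The members, lists and alternatives were chosen with earlier results of these data known. Named were all 10 members, for each the 2 genes with the highest Pearson correlation, from each pathway list the genes with the lowest p and the highest and lowest difference, and from each marker list the gene with the lowest p. Alternatives were quantile normalisation, array medians subtracted, the replicate number as a block, the dimmest 40% left out, eBayes with trend and robust, array weights, no moderation, length trend removal, leaving out each array, medians across the probe sets of a gene, and an adjusted p of 0.01.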

Additional observations from a re-analysis of the deposited data

Results flagged for a closer look

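The 10 members and the genes named from the pathway and marker lists, 39 in all, were checked in both groups. In 11 of 78 sets of 4 arrays the highest or lowest array stood far from the other 3 by Dixon's criterion. Chance meets it in about 1 in 20 single, unselected sets. These sets share the same 8 arrays and the list genes were picked by these same values, so that rate does not apply to them. In 9 of the 11 the array that stood apart was wild-type replicate 4. Of the 10 genes described, cyd-1 was high in it (8.76), and mutant replicate 3 was low for cdk-1 (11.47) among mutants that differ little. Wild-type replicate 4 was also high for cdc-25.2 (9.93) and mex-3 (10.91). It was low for lin-37 (8.83), psf-3 (8.47), apc-10 (8.81), kbp-3 (9.31), syp-2 (10.003) and pat-10 (11.85). Mutant replicate 2 was high for mcm-2 (10.98).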

How the results depend on the processing

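The count of 0 changed among the 10 genes held under quantile normalisation, subtracted medians, the dimmest left out, trend and robust, no moderation, the length trend removed, the median over probe sets, the stricter threshold, and without any of 7 arrays. It was 4 without wild-type replicate 4 (range over arrays left out 0 to 4), 5 (all of which rose) with array weights and 6 with the length trend removed and that array left out. Over all genes, 470 changed. The count was 10500 with array weights, 18 without moderation, 23 at an adjusted p of 0.01, 8636 with the length trend removed and without wild-type replicate 4, and 38 to 9434 with 1 array left out. With the replicate number as a block 346 genes and 0 of the 10 changed. The numbers were not taken to pair the samples: deviations of same-numbered arrays correlated at 0.19, -0.11, 0.37 and 0.27. Those of unlike-numbered arrays correlated at -0.37 to 0.43, highest for wild-type replicate 4 with mutant replicate 2. Sign changes were all in genes that were not called. For cdk-4 the difference was -0.0651 with array weights, -0.0023 with the length trend removed, -0.0351 with wild-type replicate 4 left out as well, and -0.0592 to 0.0574 with 1 array left out (below 0 without wild type 3 or 4 or mutant 3). The length trend removed gave 0.0294 for cki-1 and 0.0194 for cyb-1, and 0.0338 and 0.0442 without wild-type replicate 4. For cye-1 it ran from -0.0829 to 0.0227 with 1 array left out, above 0 without wild type 1 or 3 or mutant 2 or 4. With 4 arrays per group the median standard error over all genes was 0.17 for a log2 difference, which limits the size of change that can be detected.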

Other observations

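In both groups some of the 10 genes divided the arrays by the parity of their label number, a pattern noticed after the values were seen and not tested. For cye-1 and lin-35 replicates 1 and 3 lay above replicates 2 and 4 within each group, as they did for 11.7% of all genes. For chk-1 they lay below in each group, as for 9.88% of all genes. Within the mutants chk-1 read 8.64 and 8.73 in replicates 1 and 3 and 9.51 and 9.19 in replicates 2 and 4. The labels do not say what the numbers stand for.

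Body wall muscle markers had a similar layout in the mutants. Their median, relative to wild-type replicates 1 to 3, was 0.31 and 0.22 in mutant replicates 1 and 3, 0.75 and 0.66 in replicates 2 and 4, and 0.71 in wild-type replicate 4. The median difference between groups was 0.31 over this list and 0.09 once the trend with gene length was taken out, and the median gene length of this list is 6594 bp.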
